A study of Homo sapiens with 6 samples.

Results

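The genes described are the receptors of the epidermal growth factor (ErbB) family, their ligands and the receptor inhibitor ERRFI1, in H226 lung squamous carcinoma cells. They were chosen by name, with earlier results of these data known. They are the receptors EGFR, ERBB2 and ERBB3, the ligands AREG, EREG, HBEGF, TGFA, BTC and NRG1, and ERRFI1, 10 genes in all. A gene was measured where a probe set of the array named that gene and no other, which held for 9 of the 10 among 18404 such genes. AREG was not analysed here. RNA of H226, an established human line, was hybridised to 6 Affymetrix HuGene 1.0 ST arrays, 2 for each of 3 groups. The labels give every group the shRNA shp63, directed at p63, a transcription factor of basal and squamous epithelium, and doxycycline turns it on. In the control group shp63 was OFF and the cells grew untreated. The second group, also shp63 OFF, was given Nutlin-3 at 10 µM over 12 h, an inhibitor of MDM2 that stabilises p53. The shp63 ON group received 1 µg/mL doxycycline for 48 h. All cells were plated in serum-containing RPMI medium 24 h ahead of treatment. RNA came from whole cultures, in which fewer cells of a type and less RNA per cell cannot be told apart.

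Receptors of this family are tyrosine kinases that act as pairs. EGFR binds TGFA, HBEGF, EREG, BTC and AREG, whereas ERBB3 binds NRG1, has little kinase activity of its own and signals with ERBB2, which has no known ligand. The ligands are made as membrane proteins and are released by sheddases, and the bound receptors feed the RAS-ERK and PI3K-AKT pathways. In squamous epithelium the EGFR ligands act as autocrine growth signals, and ERRFI1 (MIG6) binds the kinase domain of the receptors and blocks it as a feedback inhibitor.

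The deposited values were log2 intensities of probe sets, so a difference of 1 is a doubling, and levels of different genes are not compared. Changes were tested with limma, which fits a linear model to all 18404 genes; calls were made at a Benjamini-Hochberg adjusted p under 0.05. An exact permutation test of 2 arrays against 2 has a smallest two-sided p of 0.333, so p-values are the model's alone. The number of arrays limits the precision, and nothing in the labels says that replicates came from separate cultures, so the p-values may measure technical spread only. Over all genes, arrays of the same group correlated at r of 0.997 to 0.998, and those of different groups at 0.975 to 0.989. Expression of the shRNA's target was not analysed here, so how far it was knocked down is unknown. Doxycycline, the longer treatment and the shRNA were given together, and their effects cannot be told apart. Markers of squamous and basal epithelium were bright on average in all groups. Mean log2 intensities over 8 measured markers were 10.44 to 10.47 in control, 11.00 to 11.06 with Nutlin-3 and 10.18 to 10.21 in shp63 ON arrays. Over 21 markers of mesothelial, leukocyte, endothelial and fibroblast cells the means were 6.51 to 6.53, 6.52 and 6.67 to 6.71, in the same order. Of these 21 markers, 3 rose and 1 fell with Nutlin-3 (19%, against 18.5% of all genes called), and 8 rose and 1 fell in shp63 ON (42.9%, against 36.2% of all genes). Of the 8 squamous markers, 4 rose and 0 fell with Nutlin-3 in limma (50%; 5 and 1 at an unadjusted p under 0.05, 4 and 0 without moderation), and 1 rose and 4 fell in shp63 ON (62.5%). Over the arrays these 8 ran from KRT15, the 1 that rose in shp63 ON, at 6.74 to 7.71 to PERP at 12.50 to 12.69. The lists of other cell types were mixed in level. Over the arrays, the 5 leukocyte markers ran from PTPRC at 4.24 to 4.48 to CD68 at 9.27 to 10.05, and the 6 fibroblast markers from LUM at 3.85 to 4.17 to COL1A1 at 8.18 to 8.40. The 5 endothelial markers ran from PECAM1 at 4.84 to 5.22 to CDH5 at 8.07 to 9.21, and the 5 mesothelial ones from LRRN4 at 5.76 to 6.23 to BNC1 at 9.45 to 10.55, with MSLN at 9.76 to 10.09, CALB2 at 6.09 to 6.35 and WT1 at no more than 6.44. The part of these shifts in the results that follow was not tested.

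EGFR, HBEGF and TGFA were highest with Nutlin-3, whereas ERRFI1, ERBB2 and ERBB3 were highest in shp63 ON. The promoters of EGFR, HBEGF and TGFA, which rose together with Nutlin-3, and of ERRFI1, which moved the other way, are shown as the 250 bases before the RefSeq start of the gene (GRCh38.p14), 5′ to 3′ on the gene's strand. They lie at chr7:55018767-55019016 (plus strand), chr5:140346604-140346853 (minus strand), chr2:70553827-70554076 (minus strand) and chr1:8026310-8026559 (minus strand). Capitals mark matches on either strand to any of 5 motifs. These were the GC box, spelled GGGCGG; the TATA box, spelled TATAAA; the box named for its letters CCAAT; the AP-1 site, spelled TGANTCA; and the core of the cAMP response element, spelled TGACG.
EGFR: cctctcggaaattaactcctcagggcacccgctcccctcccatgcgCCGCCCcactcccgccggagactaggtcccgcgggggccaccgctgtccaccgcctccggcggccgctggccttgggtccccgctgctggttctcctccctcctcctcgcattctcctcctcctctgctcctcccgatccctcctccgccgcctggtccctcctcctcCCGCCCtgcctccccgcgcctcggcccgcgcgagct
HBEGF: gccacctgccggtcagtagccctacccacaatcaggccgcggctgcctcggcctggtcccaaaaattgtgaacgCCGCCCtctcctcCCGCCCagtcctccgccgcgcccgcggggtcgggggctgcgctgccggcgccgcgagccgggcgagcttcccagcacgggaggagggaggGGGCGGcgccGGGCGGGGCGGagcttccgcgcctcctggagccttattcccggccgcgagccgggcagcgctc
TGFA: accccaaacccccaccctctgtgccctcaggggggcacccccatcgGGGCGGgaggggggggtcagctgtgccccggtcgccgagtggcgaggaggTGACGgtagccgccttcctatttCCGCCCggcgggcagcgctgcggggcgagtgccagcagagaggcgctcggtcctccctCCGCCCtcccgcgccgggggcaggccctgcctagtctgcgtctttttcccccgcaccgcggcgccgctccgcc
ERRFI1: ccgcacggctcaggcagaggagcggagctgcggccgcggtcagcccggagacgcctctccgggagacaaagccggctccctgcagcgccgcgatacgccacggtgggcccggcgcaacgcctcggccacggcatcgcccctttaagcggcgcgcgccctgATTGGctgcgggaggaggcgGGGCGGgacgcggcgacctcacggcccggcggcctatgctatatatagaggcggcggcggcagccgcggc

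All 4 sequences were rich in G and C, at 73.6% for EGFR, 76.4% for HBEGF, 75.6% for TGFA and 75.2% for ERRFI1, against a median of 58% over 35116 RefSeq promoter windows of the same length. Each held the GC box, with 2 matches in EGFR, 5 in HBEGF, 3 in TGFA and 1 in ERRFI1, of which 2 in HBEGF share a base. Of all windows, 42.6% held it. Neither the letters TATAAA nor the AP-1 site occurred in the 4 windows shown, and 10.7% and 6.57% of all windows held them. Other spellings of the TATA box were not searched, and ERRFI1 holds the run TATATATA near its start. The RefSeq table also gives a window at another start of EGFR, not shown. It held 2 matches to TATAAA, 2 to the AP-1 site and no GC box. A second window of TGFA held no match to any motif searched. The cAMP response core occurred in TGFA in 1 place (21.2% of all windows) and the CCAAT box in ERRFI1 in 1 place (32% of all). RefSeq windows were searched for 8 of the 10 genes, and none was searched for ERBB3 or NRG1. In the windows of AREG, BTC, ERBB2 and EREG, the TATA box occurred in EREG and AREG, and the AP-1 site in ERBB2. The GC box occurred in AREG and not in BTC, ERBB2 or EREG. The CCAAT box occurred in ERBB2 and EREG, and the cAMP response core in AREG and EREG. The p53 decamer and the CArG box, the motif of serum response factor, occurred in 5.57% and 1.16% of all windows and in no window of these 8 genes. A match is a run of letters in this window and says nothing of binding.

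With Nutlin-3, EGFR and 3 of its ligands rose, and ERBB3 and ERRFI1 fell. Of the 9 measured genes 6 passed (66.7%), 4 higher and 2 lower, against 18.5% of all genes, 9.64% higher and 8.89% lower. The median log2 fold change of the 9 was 0.21, against −0.00 over all genes. With the shRNA turned on, ERBB2, ERBB3 and ERRFI1 rose, and HBEGF, TGFA and NRG1 fell. Again 6 of 9 passed, 3 in each direction, against 36.2% of all genes, 19.7% higher and 16.5% lower, with medians of 0.12 and 0.04. Both comparisons use the same control arrays, so their values are given side by side and not as independent of each other. Between shp63 ON and Nutlin-3, 7 of 9 passed, 3 higher and 4 lower in shp63 ON. Of all genes 51.5% passed there, 27.5% higher and 24.0% lower. The control arrays do not enter that difference, but they enter its estimate of spread. The genes were chosen with earlier results of these data known, so these shares are not a test of the family. A separate fit of bright genes alone also called a larger share than the fit of all genes, and the 9 were not set against genes of like brightness. Centring each array on its median changed the split over all genes to 2609 higher and 1062 lower with Nutlin-3 (from 1774 and 1636), to 2418 and 3854 in shp63 ON (from 3634 and 3036), and to 3314 and 6565 between them (from 5057 and 4424). It moved the median over all genes in the last comparison from 0.026 to −0.097, and the 9 genes then gave 3 higher and 4 lower as before. Of 18404 genes, the unmoderated one-way model named in the design text called 1236 with Nutlin-3, 3003 in shp63 ON and 6089 between the groups. Of the 9 genes it called 1, 2 and 7, in the same order. Without control replicate 1 the count with Nutlin-3 was 2.

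**Figure D1:**
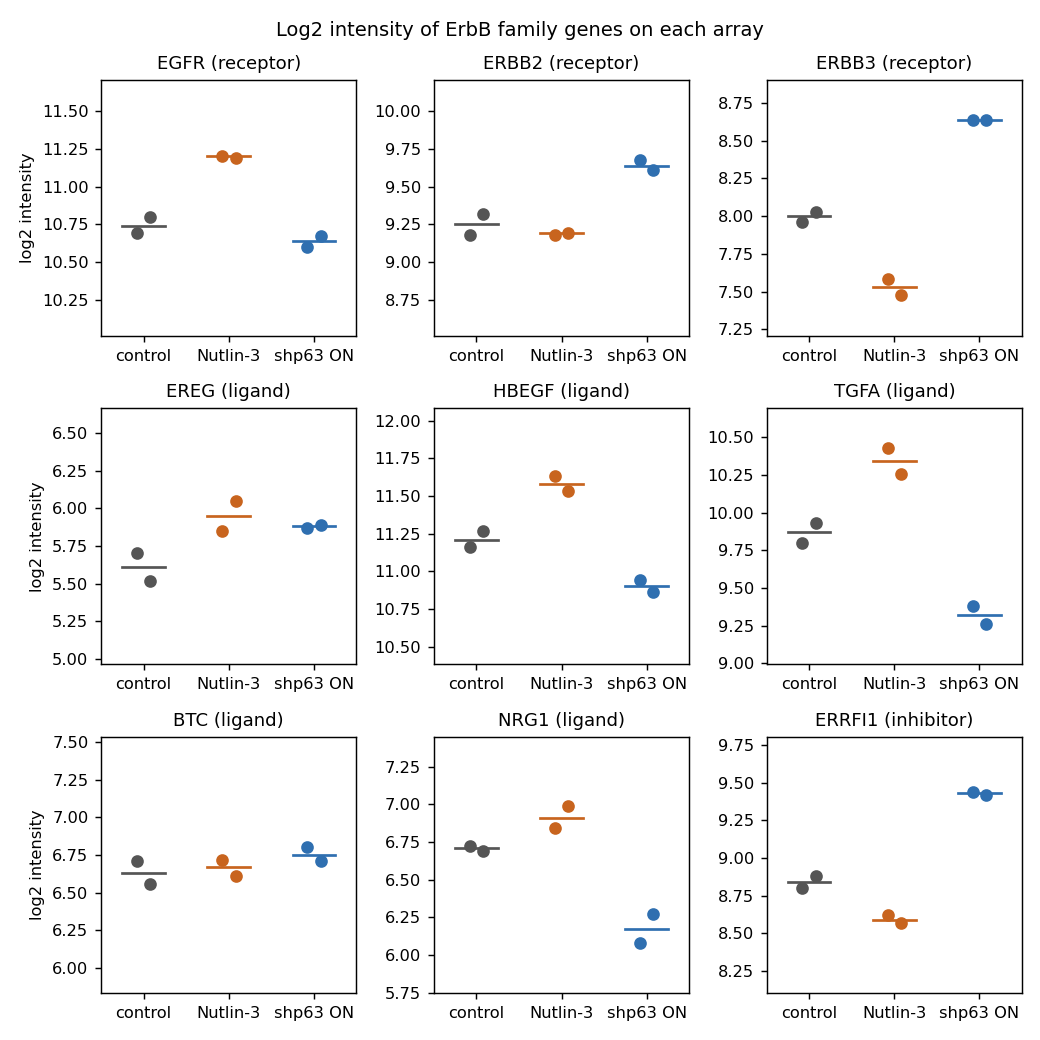
Log2 intensity on each array (points) and group mean (lines) for the 9 measured genes, by group; each panel has its own range, of equal height. EGFR, HBEGF and TGFA are highest with Nutlin-3, ERBB3 and ERRFI1 are highest in shp63 ON and lowest with Nutlin-3, and BTC groups overlap.

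Among the receptors, EGFR, the shared receptor of TGFA and HBEGF, was higher with Nutlin-3 than in either other group. The gene lies at chr7:55019017-55211628 (GRCh38.p14, the build of the RefSeq table; that of the array is not given in the sources used here). Its log2 intensities were 10.69 and 10.80 in control, 11.20 and 11.19 with Nutlin-3, and 10.60 and 10.67 in shp63 ON. The Nutlin-3 arrays lay above all others, and the shp63 ON arrays lay just below the control arrays. The rise with Nutlin-3 was 1.37-fold (log2 fold change 0.46, SE 0.07, n = 2 each, limma adjusted p = 0.00392). In shp63 ON the difference of −0.11 (SE 0.07) from control did not pass (limma adjusted p = 0.265, 95% interval −0.26 to 0.05). EGFR was lower in shp63 ON than with Nutlin-3 by −0.56 (SE 0.07, limma adjusted p = 0.00049).

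ERBB2, the partner that the other receptors favour, differed in the shp63 ON arrays. ERBB2 (chr17:39688094-39728658) stood at 9.18 and 9.32 in control, 9.18 and 9.19 with Nutlin-3, and 9.68 and 9.61 in shp63 ON. The control and Nutlin-3 arrays overlapped, and both shp63 ON arrays lay above them. The rise in shp63 ON was 1.32-fold (log2 fold change 0.40, SE 0.07, limma adjusted p = 0.00522). With Nutlin-3 the difference was −0.06 (SE 0.07, 95% interval −0.23 to 0.11, limma adjusted p = 0.601). Against Nutlin-3, ERBB2 was 1.37-fold higher in shp63 ON (0.46, SE 0.07, limma adjusted p = 0.00147).

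ERBB3, the neuregulin receptor, had the widest span of group means of the 9 genes, 1.11 on the log2 scale. It lies at chr12:56080108-56103505. Its values were 7.96 and 8.03 in control, 7.58 and 7.48 with Nutlin-3, and 8.64 on both arrays of shp63 ON. No groups overlapped, with Nutlin-3 lowest and shp63 ON highest. ERBB3 fell with Nutlin-3 (log2 fold change −0.47, SE 0.07, limma adjusted p = 0.00311) and rose 1.56-fold in shp63 ON (0.64, SE 0.07, limma adjusted p = 0.000484). The direct difference between shp63 ON and Nutlin-3 was 2.16-fold (1.11, SE 0.07, limma adjusted p = 2.5e-05). All 3 differences kept their direction and passed under all 14 alternative settings.

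The EGFR ligand TGFA, transforming growth factor alpha (chr2:70447284-70553826), was ordered as Nutlin-3 over control over shp63 ON. Its log2 intensities were 9.80 and 9.93 in control, 10.43 and 10.26 with Nutlin-3, and 9.38 and 9.26 in shp63 ON, with no overlap between groups. TGFA rose 1.39-fold with Nutlin-3 (0.48, SE 0.09, limma adjusted p = 0.00903) and fell in shp63 ON (−0.55, SE 0.09, limma adjusted p = 0.00309). Between shp63 ON and Nutlin-3 the difference was 2.03-fold (−1.02, SE 0.09, limma adjusted p = 0.000105). Without control replicate 1 the rise with Nutlin-3 was 0.41 and missed the threshold (limma adjusted p = 0.0765; the alternatives ran from 0.000677 to 0.111).

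HBEGF, heparin-binding EGF-like growth factor (chr5:140332843-140346603), which binds EGFR, had the same order of groups. It stood at 11.16 and 11.27 in control, 11.63 and 11.53 with Nutlin-3, and 10.94 and 10.86 in shp63 ON. The pairs did not overlap. The rise with Nutlin-3 was 1.29-fold (0.37, SE 0.07, limma adjusted p = 0.0138), the fall in shp63 ON was −0.32 (SE 0.07, limma adjusted p = 0.0142), and the direct difference was −0.69 (SE 0.07, limma adjusted p = 0.00029). The rise was not past the threshold without control replicate 1 (0.31, limma adjusted p = 0.104, range 0.00064 to 0.104) or nutlin replicate 1 (0.32, adjusted p = 0.0633). The fall was not past it without control replicate 2 (−0.26, limma adjusted p = 0.0955, range 0.00108 to 0.0955), without shp63_on replicate 2 (−0.28, adjusted p = 0.0726) or after cyclic loess (−0.22, adjusted p = 0.0509).

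NRG1, neuregulin 1, the ligand of ERBB3, was lower in shp63 ON. Its brighter probe set stood at 6.72 and 6.69 in control, 6.84 and 6.99 with Nutlin-3, and 6.08 and 6.27 in shp63 ON, so that the shp63 ON arrays lay below all others. The fall in shp63 ON was −0.53 (SE 0.09, limma adjusted p = 0.00341), and with Nutlin-3 the difference of 0.21 did not pass (SE 0.09, 95% interval 0.01 to 0.41, limma adjusted p = 0.139). A second probe set of the gene stood at 6.40 and 6.28 in control, 6.61 and 6.56 with Nutlin-3, and 5.23 and 5.43 in shp63 ON. It showed the same order of groups, with a larger fall in shp63 ON (−1.01, SE 0.09, limma adjusted p = 0.000277, adjusted over all probe sets that name 1 gene). Its difference with Nutlin-3 was 0.24 (SE 0.09, adjusted p = 0.0975). Between shp63 ON and Nutlin-3 NRG1 differed by −0.74 (SE 0.09, limma adjusted p = 0.000412) on the first probe set and by −1.26 (SE 0.09) on the second. NRG1 was the gene of the 9 with more than 1 such probe set.

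The EGFR ligands EREG and BTC had low intensities on every array. The table used gives no detection calls, so whether they stood above background is not known, and the same holds for NRG1 in every group. A log2 difference of a gene near background understates its change. EREG, epiregulin (chr4:74365145-74388749), stood at 5.70 and 5.52 in control, 5.85 and 6.05 with Nutlin-3, and 5.87 and 5.89 in shp63 ON. Both treated groups lay above control, and they overlapped each other. The rise with Nutlin-3 lay close to the threshold (0.34, SE 0.09, limma adjusted p = 0.043). It did not pass in 6 of 13 alternatives (range 0.0209 to 0.213), among them those without control replicate 1 (0.43, adjusted p = 0.0643), control replicate 2 (0.24, adjusted p = 0.213) or nutlin replicate 2 (0.24, adjusted p = 0.17). In shp63 ON the difference of 0.27 (SE 0.09, 95% interval 0.05 to 0.48) did not pass (limma adjusted p = 0.0546), and it passed in a fit of only the 2 groups compared (adjusted p = 0.038). BTC, betacellulin (chr4:74744759-74794523), ranged from 6.56 to 6.71 in control, 6.61 to 6.72 with Nutlin-3 and 6.71 to 6.80 in shp63 ON, and all groups overlapped. Its differences from control were 0.03 (95% interval −0.15 to 0.22) and 0.12 (95% interval −0.07 to 0.30), with limma adjusted p = 0.825 and 0.279.

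The feedback inhibitor ERRFI1 (chr1:8011727-8026309) was ordered oppositely to TGFA and HBEGF. Its values were 8.80 and 8.88 in control, 8.62 and 8.57 with Nutlin-3, and 9.44 and 9.42 in shp63 ON. The groups did not overlap. The rise in shp63 ON was 1.51-fold (0.59, SE 0.06, limma adjusted p = 0.000579) and passed under all 14 alternatives, as did the 1.79-fold difference from Nutlin-3 (0.84, SE 0.06, limma adjusted p = 6.68e-05). The fall with Nutlin-3 (−0.25, SE 0.06, limma adjusted p = 0.0337) was less firm. It was lost in 8 of 14 alternatives (range 0.0091 to 0.172), including each that left out an array: control replicate 1 (−0.29, adjusted p = 0.0932), control replicate 2 (−0.21, adjusted p = 0.172), nutlin replicate 1 (−0.28, adjusted p = 0.0703) or nutlin replicate 2 (−0.23, adjusted p = 0.119).

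**Figure D2:**
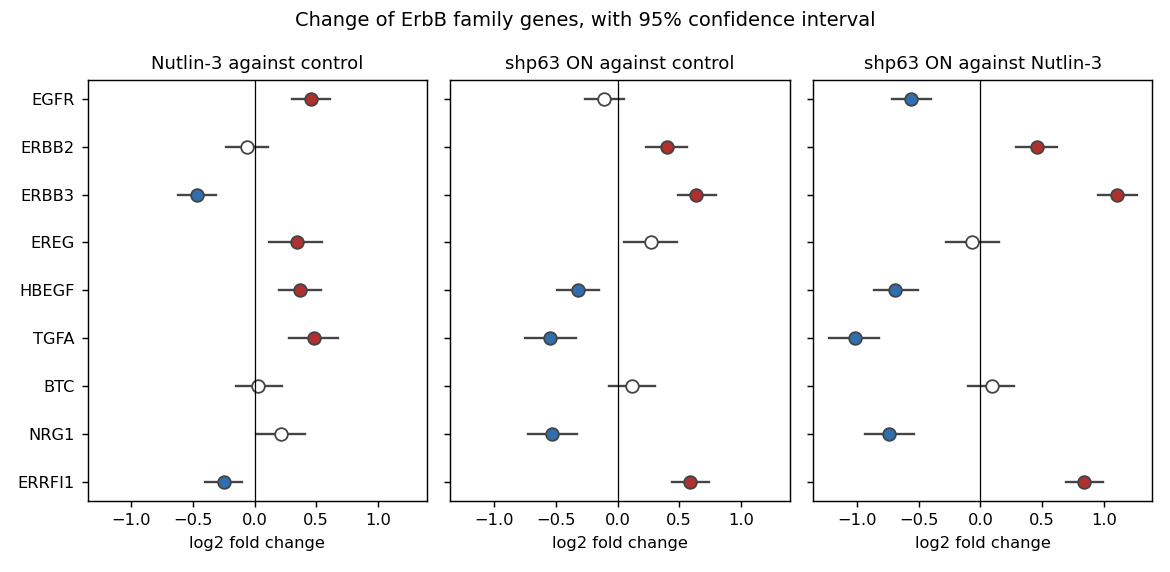
Log2 fold change (points) with its 95% confidence interval (lines) in limma for each of the 9 genes in the 3 comparisons; red points passed as higher, blue as lower, and open points did not pass. ERBB3 at 1.11 and TGFA at −1.02 are the extremes of the comparison between shp63 ON and Nutlin-3.

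ERBB3, as the gene with the widest span, was set beside all other genes by the root mean square difference of the 6 values, each gene centred on its own mean. The 5 nearest were MAP1B (0.031), HID1 (0.033), ACTA1 (0.034), TMEM38A (0.045) and KLF12 (0.050), all over 6 arrays. MAP1B encodes a microtubule-associated protein, ACTA1 skeletal muscle actin and KLF12 a zinc finger transcription factor. ACTA1 stood at 11.04 on both control arrays, 10.57 and 10.52 with Nutlin-3, and 11.72 on both shp63 ON arrays. The 6 points share 3 conditions, so many genes can lie close by this measure.

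**Figure D3:**
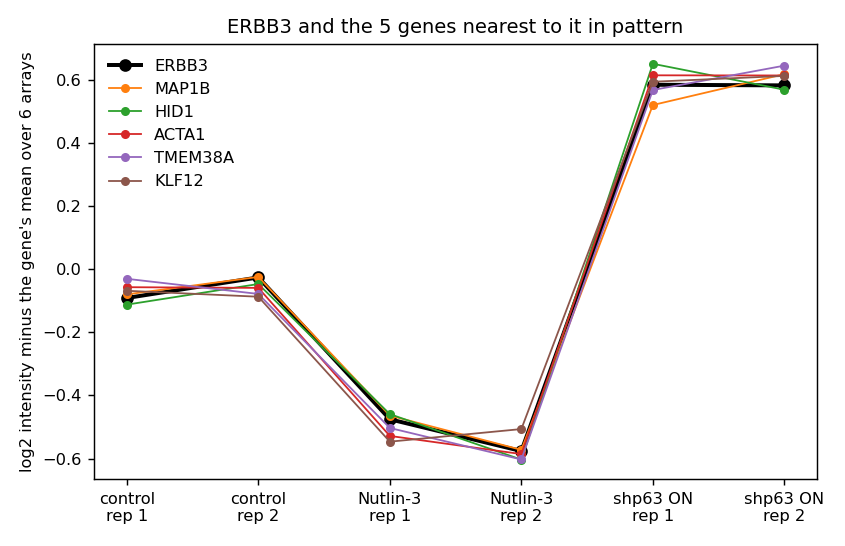
Log2 intensity minus the gene's own mean over the 6 arrays, for ERBB3 (black) and the 5 genes nearest to it in pattern; lines join the arrays of a gene and carry no time order. All 6 genes lie lowest on the Nutlin-3 arrays and highest on the shp63 ON arrays.

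Other genes of the pathway were taken in 6 lists of 93 genes, of which 83 were measured. Over all 83, 21 rose and 6 fell with Nutlin-3 (32.5%, against 18.5% of all genes), 14 rose and 25 fell in shp63 ON (47%, against 36.2%), and 10 were higher and 40 lower in shp63 ON than with Nutlin-3 (60.2%, against 51.5%). In a fit of only the genes at or above the median intensity, 3334, 4813 and 5918 genes passed in these comparisons. This fit, with its own variance moderation and adjustment, called a larger share of its genes than the main fit called of all genes. The lists, chosen with earlier results of these data known, were not set against genes of like brightness. Of the 6 remaining family members, the receptor ERBB4 and the ligands EGF, EPGN, NRG2, NRG3 and NRG4, only EPGN, epigen, an EGFR ligand, rose with Nutlin-3 (0.54, SE 0.10, limma adjusted p = 0.0103), and not without nutlin replicate 2 (adjusted p = 0.0533). Its intensities were low, 4.66 to 5.40 over the arrays, and may lie near background. In shp63 ON, NRG4 (0.31, SE 0.09) and NRG2 (0.28, SE 0.08) passed as higher, but neither did so without control replicate 1 (adjusted p = 0.15 and 0.0857), without control replicate 2 (0.0605 and 0.14), without shp63_on replicate 2 (0.0978 and 0.144) or after array median centring, and NRG4 also did not without shp63_on replicate 1 (0.1). The list's median was −0.01 with Nutlin-3 and 0.19 in shp63 ON. Between shp63 ON and Nutlin-3, NRG2 was higher (0.47, SE 0.08) in all 14 alternatives.

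The next list held 9 genes, the sheddases that free the ligands from the membrane, their trafficking factors and the inhibitor TIMP3. With Nutlin-3, 3 of them rose (33.3%, against 18.5% of all genes called and 9.64% called higher; median 0.14). RHBDF2, the iRhom2 protein that carries the sheddase ADAM17 to the cell surface, rose from 7.88 ± 0.11 to 8.79 ± 0.06 (SD, n = 2 each; log2 fold change 0.90, SE 0.08, limma adjusted p = 0.000222). ADAM17 itself, the main sheddase of TGFA and HBEGF, rose by 0.32 (SE 0.06), a call lost without control replicate 1 (adjusted p = 0.0622) or control replicate 2 (0.0716). The third was TIMP3, an inhibitor of ADAM17 (0.43, SE 0.06). In shp63 ON, ADAM9 (0.66, SE 0.08) and RHBDF1 (0.38, SE 0.07), the iRhom1 gene, rose and ADAM12 fell (−0.59, SE 0.07), all 3 under all 14 alternatives (33.3% of the list, against 36.2% of all genes). RHBDF2 was lower in shp63 ON than with Nutlin-3 (−1.13, SE 0.08). The median in shp63 ON was −0.08, with 4 higher and 1 lower after quantile normalization or cyclic loess and 2 higher and 3 lower after array median centring.

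Of 13 measured adaptors and RAS-ERK genes, 2 rose and 3 fell with Nutlin-3 (38.5%, against 18.5% of all genes; median 0.11), and 4 rose and 2 fell there after array median centring. In shp63 ON, 3 rose and 2 fell (38.5%, against 36.2% of all genes; median 0.15). GAB2, a docking adaptor, went from 7.82 ± 0.07 in control to 7.46 ± 0.02 with Nutlin-3 and 8.67 ± 0.06 in shp63 ON (SD, n = 2 each). Its log2 fold changes were −0.37 (SE 0.07) and 0.85 (SE 0.07), the first of which did not pass without control replicate 2 (adjusted p = 0.0744). MAP2K1, the kinase MEK1, had a similar order, with −0.34 (SE 0.06) and 0.75 (SE 0.06). Its fall with Nutlin-3 did not pass without control replicate 1 (adjusted p = 0.0768), control replicate 2 (0.0664) or nutlin replicate 2 (0.0509). KSR1, a scaffold of the ERK cascade, rose in both comparisons (0.69 and 0.63, SE 0.10 each). Neither rise passed in the unmoderated model (adjusted p = 0.0879 and 0.0664). HRAS was lower in shp63 ON than with Nutlin-3 (−0.55, SE 0.08). The balance in shp63 ON turned on the scaling, with 8 higher and 0 lower after quantile normalization and 8 and 1 after cyclic loess.

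Of 11 measured PI3K-AKT, PLC and STAT genes, 1 rose and 1 fell with Nutlin-3 (18.2%, against 18.5% of all genes; median 0.10), and 3 rose and 0 fell after array median centring. In shp63 ON, 1 rose and 6 fell (median −0.20, 63.6% called against 36.2% of all genes). In the unmoderated model 0 of the 11 rose and 1 fell there, and that model called 3003 of all 18404 genes. The regulatory subunit PIK3R3 rose with Nutlin-3 (0.76, SE 0.07) and was lower in shp63 ON (−0.31, SE 0.07). The latter was lost without control replicate 1 (adjusted p = 0.0852), control replicate 2 (0.0527) or shp63_on replicate 1 (0.0807). PIK3R1, the p85 alpha subunit, fell in shp63 ON (−0.56, SE 0.07) under all 14 alternatives. AKT1 passed as lower with Nutlin-3 (−0.23, SE 0.06) and PDPK1, the kinase that activates AKT, as higher in shp63 ON (0.28, SE 0.07), in 6 and 8 of 14 alternatives. With all probe sets of PDPK1 averaged its difference was 0.13 (adjusted p = 0.12), so the probe sets of the gene differ. Without a single control array neither passed (adjusted p = 0.127 and 0.189 for AKT1, and 0.0909 and 0.0774 for PDPK1, without replicate 1 and 2). The same held without nutlin replicate 1 (0.0974) or 2 (0.13) for AKT1, and without shp63_on replicate 1 (0.101) for PDPK1. The catalytic subunit PIK3CB was lower in shp63 ON than with Nutlin-3 (−0.40, SE 0.07). After quantile normalization or cyclic loess, 3 of the 11 fell and 1 rose in shp63 ON.

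Receptor trafficking and negative regulators numbered 23 measured genes. With Nutlin-3, 5 rose and 2 fell (30.4%, against 18.5% of all genes; median 0.11; 8 and 0 after array median centring), led by the ERK phosphatases DUSP5 (0.63, SE 0.08) and DUSP6 (0.55, SE 0.08) and the EGFR-binding SOCS4 (0.58, SE 0.07). In shp63 ON, 4 rose and 8 fell (52.2%, against 36.2% of all genes; median −0.07; 6 and 6 with a median of 0.01 after quantile normalization, 2 and 10 after array median centring). DUSP6 fell most, from 8.86 ± 0.11 in control to 7.43 ± 0.05 (SD, n = 2 each; −1.44, SE 0.08, limma adjusted p = 2.46e-05), with LRIG3 (−0.71, SE 0.07), of a family of receptor-binding membrane proteins, and the receptor phosphatase PTPRK (−0.60, SE 0.06). Between the groups 13 of 23 were lower in shp63 ON and 0 higher in limma (56.5%, against 51.5% of all genes; 13 and 0 at an unadjusted p under 0.05, and 7 and 0 in the unmoderated model). After quantile normalization these counts were 8 and 2. They included DUSP6 (−1.99, SE 0.08), SOCS4 (−0.84, SE 0.07) and the RAS-ERK inhibitor SPRY4 (−0.78, SE 0.13).

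The list of ERK transcriptional output held 21 genes, all measured. With Nutlin-3, 9 rose and 0 fell in limma (42.9%, against 18.5% of all genes; 14 and 0 at an unadjusted p under 0.05, and 6 and 0 in the unmoderated model), with a median of 0.23. The immediate early gene PHLDA1 rose from 8.96 ± 0.05 to 9.98 ± 0.01 (SD, n = 2 each; 1.03, SE 0.06), beside the collagenase MMP1 (1.64, SE 0.10) and the transcription factor FOS (1.31, SE 0.07). In shp63 ON, 8 fell and 2 rose (47.6%, against 36.2% of all genes; median −0.06; 6 and 2 with a median of 0.01 after quantile normalization), with PHLDA1 (−0.91, SE 0.06) and MMP1 (−0.97, SE 0.10) among the falls and the urokinase receptor PLAUR (0.95, SE 0.09) among the rises. FOS was at −0.06 (SE 0.07) and did not pass. Directly compared, 15 of 21 were lower in shp63 ON than with Nutlin-3 and 1 was higher (76.2%, against 51.5% of all genes). After quantile normalization 12 were lower and 3 higher, and after cyclic loess 12 and 2. ETV4, an ETS transcription factor named after its values were seen, fell in shp63 ON (−0.56, SE 0.07). Of the other ETS factors listed, ETV5 fell there (−0.53, SE 0.11), and ETV1 (0.07, SE 0.08) and ELK1 (0.05, SE 0.09) did not pass.

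**Figure D4:**
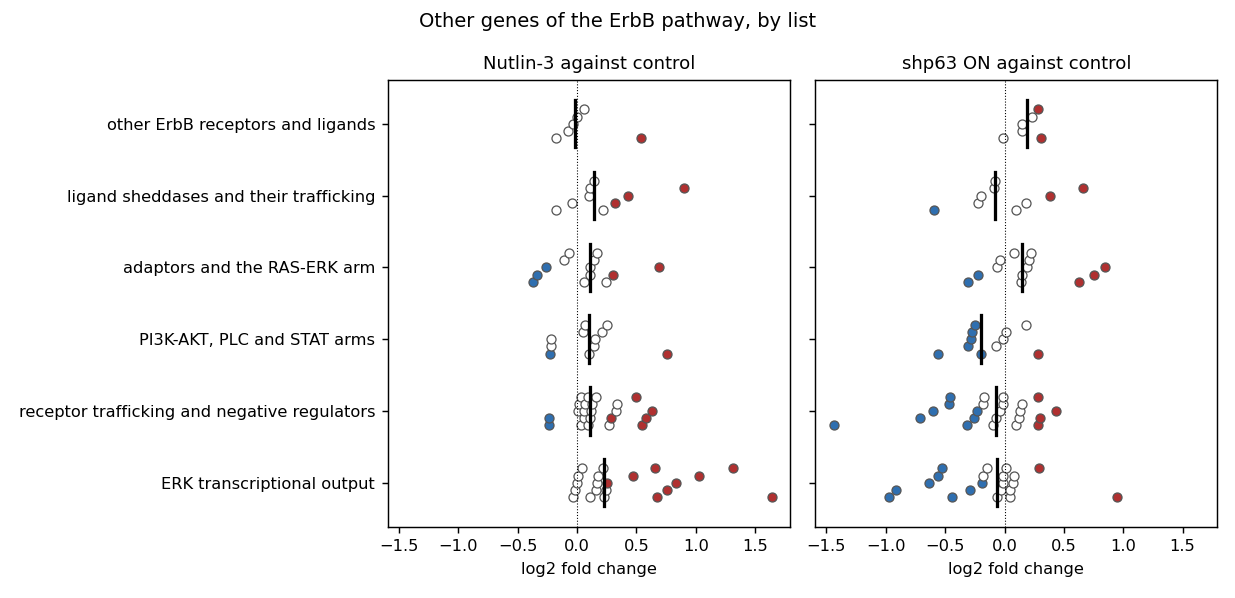
Log2 fold change of the 83 measured genes of the 6 pathway lists against control, with Nutlin-3 (left) and in shp63 ON (right); each point is a gene, filled where it passed (red higher, blue lower), and black bars are list medians. The ERK output row has its filled points on the right with Nutlin-3 and mostly on the left in shp63 ON.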

How the data were processed

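Per the labels, total RNA was extracted with Tri reagent and put on 6 HuGene 1.0 ST arrays. The table the authors deposited holds log2 probe set intensities, 1 column an array (values 2.94 to 14.9, array medians 6.57 to 6.70); that they are log2 follows from their range. Partek was used, per the submitters' processing notes. The sources used here do not state its version, nor the background correction, normalization and probe summary.

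Of 32321 probe sets, 19158 name 1 gene in the platform annotation, 1388 several and 11775 none. A gene with several was represented by the brightest on average, giving 18404 genes, with no filter on dim genes. AREG, the shRNA's target and 10 listed pathway genes were not analysed here. All 6 arrays entered 1 linear model with group as its factor (limma 3.58.1, R 4.3.3; lmFit, eBayes), with Benjamini-Hochberg adjustment over all genes; the step was tested on simulated data. In each pathway list, up to 3 called genes with the largest change were named per comparison. The genes, lists and tests were chosen with earlier results of these data known. Alternatives were 3 normalizations, the replicate block, averaged probe sets, a filter on dim genes, trend and robust moderation, no moderation, 2-group fits and leaving out each array. Promoter sequences come from RefSeq (GRCh38.p14).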

Additional observations from a re-analysis of the deposited data

How the results depend on the processing

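Counts of called genes moved with some settings. Without moderation of the variance, 1236 genes passed with Nutlin-3, 3003 in shp63 ON and 6089 between them, and 1 and 2 of the 9 ErbB genes passed in the first 2 comparisons. At an unadjusted p under 0.05 that model gave 4987, 6885 and 8904 genes. Among the brighter genes only, 5918 passed between shp63 ON and Nutlin-3, with fewer genes tested. Over the fits that left out 1 array, differences that turned sign ran from −0.13 to 0.01 (ERBB2, Nutlin-3), −0.05 to 0.11 (BTC, Nutlin-3) and −0.17 to 0.03 (EREG, shp63 ON against Nutlin-3). Leaving out 1 array of the groups compared gave 1405 to 2410 genes and 2 to 4 ErbB genes with Nutlin-3, and 3454 to 4732 genes in shp63 ON. Of the 9 genes' differences, signs turned only where the test was not passed: ERBB2 with Nutlin-3 after array median centring (0.00) and without control replicate 2 (0.01), BTC with Nutlin-3 without control replicate 2 (−0.05) or nutlin replicate 1 (−0.02), BTC between shp63 ON and Nutlin-3 after quantile normalization (−0.03), cyclic loess (−0.07) and array median centring (−0.04), and EREG there without nutlin replicate 2 (0.03). The cause was not tested. Same-numbered arrays deviated together weakly or not at all (r of −0.0620, −0.0162 and 0.107), so the replicate number was not taken as a pairing. With the replicate block 3097, 6530 and 9405 genes passed, with 4, 6 and 7 ErbB genes. Leaving out dim genes removed EREG, BTC and NRG1, which have no value there.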
